A study of Mus musculus with 9 samples.

Results

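Cytochrome P450 enzymes (P450s) of families 1 to 4 were followed in Argonaute (AGO) CLIP-seq of liver from miR-122 knockout (KO) mice and their controls. Members were all unique AGO-bound regions of protein-coding genes whose name is Cyp, a digit from 1 to 4 and a letter. This gave 456 regions in 62 genes, of 92645 regions and 13725 named genes in all. AGO carries microRNAs to their targets, and ultraviolet light fixes it to the RNA it touches, so a read count here reflects AGO occupancy and the abundance of the RNA together. The KO group held 4 mice, 1 female (replicate 1) and 3 males. The control group, floxed littermates labelled WT, held 5 mice, 3 females (replicates 1 to 3) and 2 males. All mice were 6 weeks old, the livers were flash frozen and powdered before crosslinking, and AGO was isolated with the pan-AGO antibody 2A8. The sources used here do not name the Cre driver, nor thus the cells in which miR-122 was deleted.

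P450s of these families sit in the membrane of the endoplasmic reticulum, carry a heme group and receive electrons from P450 oxidoreductase. Families 1 to 3 oxidise drugs, steroids and other foreign molecules, and family 4 is known for the omega-hydroxylation of fatty acids. Hepatocytes make most of them, many more so around the central vein, and several mouse P450s differ between male and female liver under the control of growth hormone. miR-122 is the most abundant microRNA of hepatocytes.

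Library totals ran from 612479 to 1070610 counts in KO mice and from 445912 to 1170130 counts in controls. No region used here carried the name Mir122, so the deleted gene could not itself be read in each library. The KO libraries stood apart in genes of other cell types. The 26 listed neuron markers summed to 2531, 2720.0, 3315 and 10204 CPM (reads per library, brought to the same total) in KO replicates 1 to 4, against 67.3 to 100.1 CPM in controls. Of the 20 tested, 19 were higher in KO mice, and 12 of the 26 had no control read, Rbfox1, Syn1 and Gap43 among them. Higher in KO mice were also 6 of 12 tested Kupffer cell markers, 5 of 9 stellate cell and matrix markers, 1 of 1 cholangiocyte marker and 0 of 7 endothelial markers, and none of these was lower. Among 28 tested secreted products of hepatocytes, 18 were lower and 1 was higher, and their sum ran from 24659 CPM (replicate 4) to 36969.5 CPM in KO mice and from 39476 to 48431 CPM in controls. Markers of periportal hepatocytes were lower in 9 of 12 cases and higher in 0, and pericentral markers were lower in 4 of 9 and higher in 1. Over all genes tested 21.2% were higher and 23.7% lower. The part of these differences in the P450 results was not tested. Fewer cells of a type and less RNA per cell cannot be told apart in such bulk samples.

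AGO-bound reads on the P450s were fewer in KO livers, and regions with a match to miR-122 lost nearly all of theirs. Over all 62 genes the P450s took 6751, 6758, 5049 and 3179 CPM in KO replicates 1 to 4, against 13636, 15496, 13737, 10784 and 10038 CPM in control replicates 1 to 5. All KO libraries lay below all controls. The means were 5434 ± 1705 CPM in KO mice and 12739 ± 2265 CPM in controls (SD, n = 4 and 5), and KO replicate 4 was the lowest library. Without it the KO mean was 6186 ± 984 CPM. The means mix sex with genotype, since both control males lay below all control females and most KO mice were male. Males alone averaged 4995 CPM in KO mice and 10411 CPM in controls. A match here means that the region contains a sequence able to pair with the seed of the microRNA, the bases near its start. The 48 regions in 26 genes with a miR-122-5p match summed to 242 ± 73.2 CPM in KO mice and 3519 ± 638 CPM in controls. The other 408 regions summed to 5193 ± 1637 CPM in KO mice and 9219 ± 1653 CPM in controls, again without overlap of the groups.

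As a percentage of the hepatocyte product reads in the same library, all P450 regions came to 16.8% ± 3.01 in KO mice and 27.6% ± 3.90 in controls, without overlap. Regions without a match came to 16.0% ± 2.92 in KO mice and 19.99% ± 2.83 in controls, and here the groups overlapped. Both percentages were taken of all product reads, miR-122 regions included. Those reads averaged 31737 CPM in KO mice and 46034 CPM in controls, and 31320 and 41625 CPM without miR-122 regions. The percentage for regions without a match is therefore lowered more in controls than in KO mice.

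Gene by gene, 24 of 47 tested P450 genes were lower in KO mice, 0 were higher and 23 did not pass the test. The test was edgeR's quasi-likelihood test with genotype and sex as terms, fitted and adjusted (Benjamini-Hochberg, 0.05) over all genes. The count of higher genes at an unadjusted p under 0.05 was 0, and DESeq2 called 24 lower and 0 higher. Over all 8856 genes tested, 23.7% were lower and 21.2% higher. The median log2 fold, KO over control, was -0.85 for the P450 genes and 0.05 for all genes. The other 15 P450 genes had too few reads for the test, and a gene with few KO reads could enter it only through its control reads. Scaled on the hepatocyte products alone, 19 P450 genes were lower and 4 higher (Cyp2a12, Cyp2b13, Cyp3a41a and Cyp3a41b), with a median of -0.34 beside 0.59 for all genes.

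With every miR-122 region left out of every gene, 27 of 48 tested P450 genes were lower and 0 higher, beside 16.7% lower and 17.3% higher of 8404 genes. The medians were -0.93 for P450 genes and 0.04 for all. Leaving those regions out also changed the scaling, by a median of -0.24 on the log2 scale for the 24 P450 genes that hold no such region and were tested in both fits. With the library sizes of the fit over all regions, 21 genes were lower and 0 higher, and scaled on the hepatocyte products 12 were lower and 6 higher (the same genes as above with Cyp2b9 and Cyp3a25), with a median of -0.17 beside 0.81 for all genes. Both fits called 22 genes lower. Of the 23 tested genes with a miR-122 region, 19 were lower over all regions and 17 over their other regions. Of the 24 tested genes without one, 5 were lower over all regions, beside 23.7% of all genes. The 5 genes called lower only in the fit without miR-122 regions (Cyp2d11, Cyp2d22, Cyp2d34, Cyp2j6 and Cyp4v3) hold no such region.

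**Figure D1:**
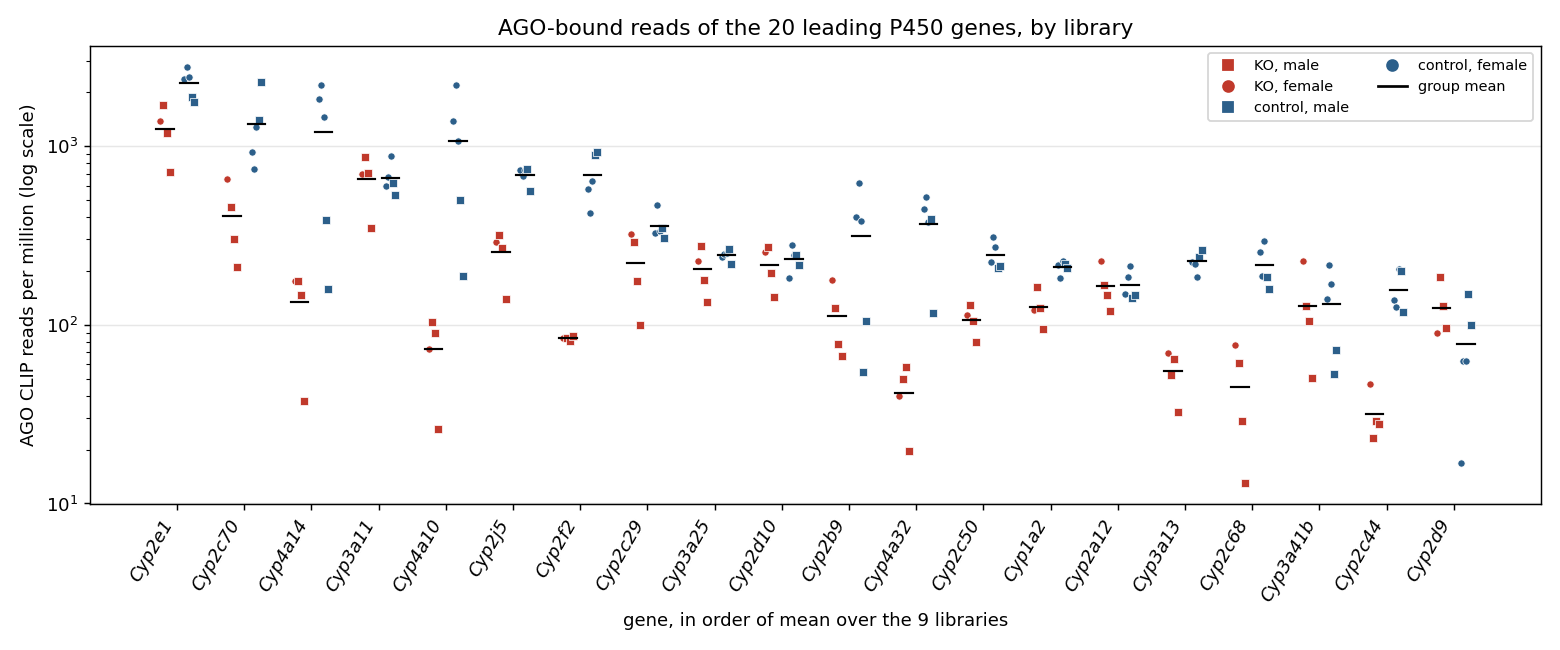
AGO CLIP reads in CPM (log scale) of the 20 P450 genes with the highest mean over the 9 libraries, KO left (red) and control right (blue), circles for females, squares for males and lines for group means. Cyp2f2, Cyp2j5 and Cyp3a13 show no overlap between the groups, Cyp3a11 and Cyp2a12 overlap, and Cyp4a10 and Cyp4a14 spread widely among controls with both males lowest.

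The Cyp2c genes, which make epoxides and alcohols of arachidonic acid, steroids and drugs, were lower as a group. The 12 genes summed to 952 ± 428 CPM in KO mice and 2936 ± 374 CPM in controls, without overlap, and to 905 ± 406 CPM in KO mice and 2264 ± 224 CPM in controls without miR-122 regions. All 10 tested Cyp2c genes were lower, in both fits, and in 8 of the 12 genes every KO library lay below every control. Over all P450 genes followed here, 21 lay below in this way, 1 lay above and 40 overlapped. The share of all liver genes with such a split was not counted. Cyp2c70, known in mouse for making muricholic acids, took 654, 454, 303 and 209 CPM in KO mice, against 927, 740.1, 1273, 1391 and 2265 CPM in controls. The KO female was the highest KO library and still lay below every control. The log2 fold was -1.85 ± 0.36 (SE; edgeR adjusted p = 0.00128).

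Cyp2c67, Cyp2c40 and Cyp2c69 belong to one gene cluster, are closely alike and hold no miR-122 region. The sources used here do not give the rule that assigned reads among such copies, so their separate values are uncertain. Cyp2c69 took 33.8, 7.80, 4.67 and 3.27 CPM in KO mice, against 209, 91.9, 172, 52.1 and 38.9 CPM in controls. All KO libraries were below all controls, and males were below females in each group. The log2 fold of Cyp2c69 was -2.75 ± 0.32 (SE; edgeR adjusted p = 3.29e-05), and those of Cyp2c67 and Cyp2c40 were -2.72 and -2.52. Cyp2c44, named Cyp2c23 in RefSeq and known as an arachidonic acid epoxygenase, averaged 31.7 ± 10.3 CPM in KO mice and 157 ± 41.8 CPM in controls, with a log2 fold of -2.36.

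The log2 folds of Cyp2c68, Cyp2c37, Cyp2c50 and Cyp2c54 were -2.17, -1.45, -1.22 and -0.87. Cyp2c29 averaged 222 ± 103 CPM in KO mice and 356 ± 64.8 CPM in controls, with a log2 fold of -0.69 ± 0.25 (SE; edgeR adjusted p = 0.0383). Its call over all regions was lost without any one of control replicates 2, 4 and 5 or KO replicates 1 and 3, and that of Cyp2c54 without KO replicate 1. Both calls were also lost in males only and when scaled on the hepatocyte products, with log2 folds there of -0.17 and -0.34, and that of Cyp2c29 with upper quartile scaling or library totals alone. Cyp2c38 had 0 reads in KO mice and 94 in controls, too few for the test. It was at least 30.6-fold lower against a floor of 3 counts over the KO group, without a term for sex. Of its control reads, 62 lay in miR-122 regions, at 29, 7 and 22 in females and 4 and 0 in males.

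The Cyp4a genes, fatty acid omega-hydroxylases and textbook targets of the nuclear receptor PPARα, were all called lower, 6 of 6. In 2 of them alone did every KO library lie below every control, a split that was not counted over all liver genes. Together they summed to 299.6 ± 119 CPM in KO mice and 2786 ± 1713 CPM in controls, without overlap. Cyp4a10 took 73.5, 103, 89.7 and 26.1 CPM in KO mice, against 1381, 2187, 1061, 496 and 187 CPM in controls. Every KO library lay below every control, though the controls differed widely and both males were lowest. The log2 fold was -3.06 ± 0.54 (SE; edgeR adjusted p = 0.000635) over all regions and -1.95 without miR-122 regions, which held 80.6% of its control reads. Without those regions the call was lost without KO replicate 1 (log2 fold -1.19) and in males only (-1.14).

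Cyp4a14 took 176, 175, 147 and 37.6 CPM in KO mice, against 1827, 2189, 1442, 384 and 158 CPM in controls. Control replicate 5, a male, fell within the KO range. Its log2 fold was -2.05 ± 0.53 (SE; edgeR adjusted p = 0.00718), and none of its regions held a miR-122-5p match. A 3' UTR region with 36.2% of its mean CPM over the 9 libraries holds a match of the class miR-122-5p-B, given below. With regions of that class also left out, the call in the fit without miR-122 regions was kept. In males alone the call was lost, over all regions (log2 fold -1.32). Cyp4a32, close to Cyp4a10 in sequence and so uncertain in its reads, averaged 41.7 ± 16.5 CPM in KO mice and 368 ± 151 CPM in controls, with a log2 fold of -2.99. Without its miR-122 regions the log2 fold was -1.31 ± 0.47 (SE; edgeR adjusted p = 0.0464), a call that was lost without any one of control replicates 1 to 4 or KO replicate 1. Cyp4a31 had a log2 fold of -1.14, and its call was lost without control replicate 4, KO replicate 1 or KO replicate 2, in males only and when scaled on the hepatocyte products. Cyp4a12a and Cyp4a12b are given with the sexes.

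Cyp2f2, which oxidises naphthalene and styrene, took 84.5, 83.8, 81.3 and 86.5 CPM in KO mice, against 576, 424, 639, 893 and 922 CPM in controls. The KO values were nearly equal and lay far below the controls. The log2 fold was -3.27 ± 0.21 (SE; edgeR adjusted p = 4.45e-07) over all regions and -1.93 ± 0.18 (SE; edgeR adjusted p = 1.24e-05) without the miR-122 regions, which held 68.3% of its control reads. Cyp2j5, an epoxygenase of arachidonic acid, took 289, 319, 267 and 139 CPM in KO mice, against 734, 675, 738, 742 and 561 CPM in controls. The groups did not overlap, and the log2 fold was -1.51 ± 0.19 (SE; edgeR adjusted p = 6.29e-05). Its miR-122 regions held 63.7% of its control reads, and without them the log2 fold was -0.44 ± 0.19 (SE; edgeR adjusted p = 0.0921), which did not pass the test. Its relative Cyp2j6 had a log2 fold of -0.85 over all regions that did not pass (edgeR adjusted p = 0.0614).

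Cyp2e1, which oxidises ethanol, paracetamol and other small molecules and led all P450s in reads, took 1385, 1699.6, 1175 and 715 CPM in KO mice, against 2378, 2772, 2432, 1878 and 1753 CPM in controls. The highest KO library lay just under the lowest control. The log2 fold was -0.84 ± 0.22 (SE; edgeR adjusted p = 0.00901). The call was lost without KO replicate 1 (log2 fold -0.70), in males only (-0.75), and when scaled on the hepatocyte products (-0.31, edgeR adjusted p = 0.231). Cyp1a2, which oxidises caffeine and aromatic amines and holds no miR-122-5p match, averaged 125 ± 28.1 CPM in KO mice and 211 ± 17.8 CPM in controls, with a log2 fold of -0.89. Scaled on the hepatocyte products, its log2 fold of -0.35 did not pass (edgeR adjusted p = 0.113). Cyp4f14, of a subfamily that hydroxylates leukotrienes and fatty acids, averaged 44.0 ± 8.40 CPM in KO mice and 108 ± 22.4 CPM in controls, with a log2 fold of -1.30.

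**Figure D2:**
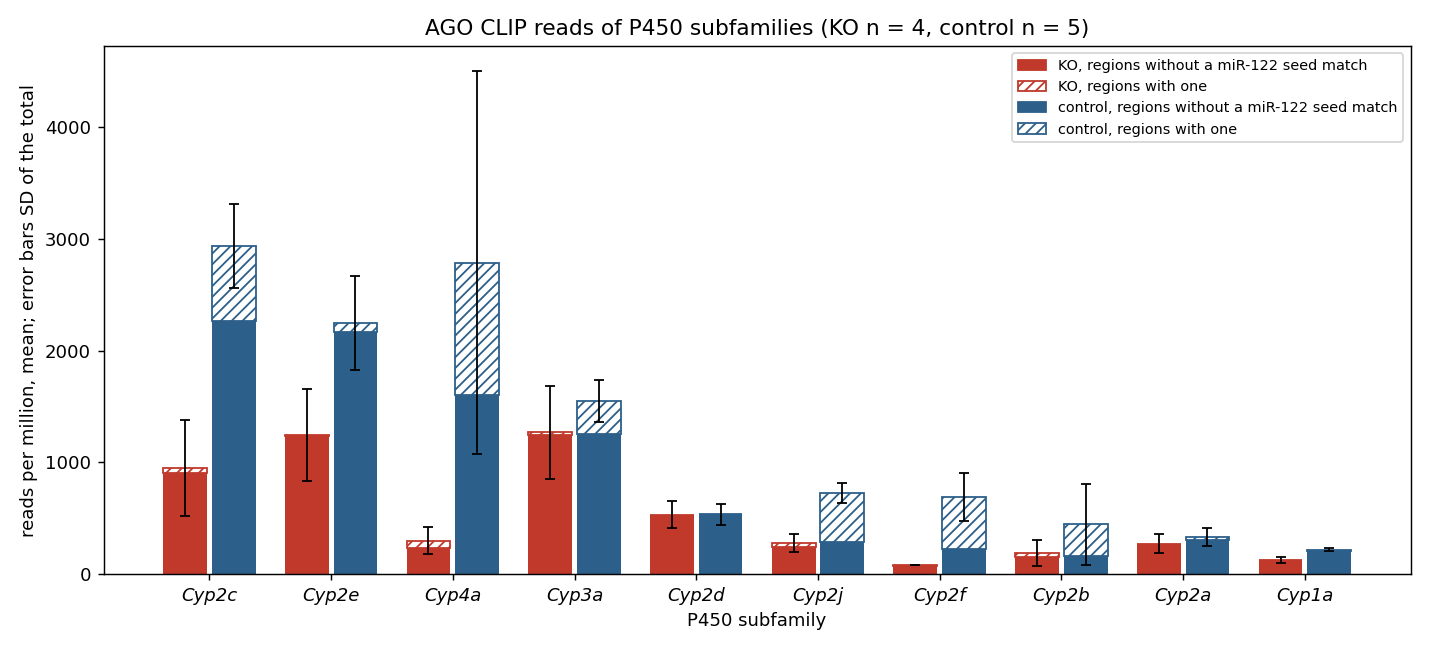
Mean AGO CLIP reads in CPM of the 10 P450 subfamilies with the most reads, KO left and control right in each pair, with the SD of the total as error bars (n = 4 and 5). Solid bars are regions without a miR-122 match and hatched bars those with one. The hatched bars are tall in control Cyp4a, Cyp2c, Cyp2f and Cyp2j and thin in KO mice, and Cyp2d has none.

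Most Cyp2d and Cyp3a genes, relatives of the human drug enzymes CYP2D6 and CYP3A4, did not pass the test. Cyp2d genes hold no miR-122 region and summed to 532 ± 121 CPM in KO mice and 536 ± 92.1 CPM in controls, and none of 6 tested was called by edgeR over all regions (1 at an unadjusted p under 0.05). Cyp2d10, their leader, averaged 216 ± 58.9 CPM in KO mice and 234 ± 35.9 CPM in controls, with a log2 fold of -0.19 ± 0.19 (SE). Cyp2d9, known as a male steroid hydroxylase, averaged 124 ± 43.6 CPM in KO mice and 78.0 ± 49.1 CPM in controls and did not pass. In the fit without miR-122 regions 3 of 7 Cyp2d genes were called lower, namely Cyp2d11, Cyp2d22 and Cyp2d34. Since no read of these genes was left out, their calls came with the changed scaling and filter, and Cyp2d11 and Cyp2d22 lost them with the library sizes of the fit over all regions.

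Cyp3a genes summed to 1271 ± 416 CPM in KO mice and 1548 ± 187 CPM in controls, with overlap. Cyp3a11, the major steroid and drug hydroxylase among them in mouse, took 695, 869, 706 and 349 CPM in KO mice, against 598, 672.8, 879, 619.6 and 532 CPM in controls. The groups overlapped, and the log2 fold was -0.06 ± 0.22 (SE; edgeR adjusted p = 0.861). Of 8 tested Cyp3a genes 2 were lower, both with miR-122 regions. Cyp3a13 averaged 54.8 ± 16.4 CPM in KO mice and 226 ± 28.6 CPM in controls, with a log2 fold of -2.16 over all regions and -0.91 without miR-122 regions. Cyp3a59 had log2 folds of -1.41 and -0.46, and only that over all regions passed. Cyp3a25 also has 3 miR-122 regions, and its log2 folds of -0.35 over all regions and 0.02 without them did not pass.

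Of 4 tested Cyp2a genes, a subfamily that hydroxylates steroids and coumarin, Cyp2a22 was lower, with a log2 fold of -1.32. Cyp2a12 averaged 165 ± 45.7 CPM in KO mice and 166 ± 31.5 CPM in controls. Cyp2b9, known as a female P450 of mouse liver, averaged 112 ± 50.6 CPM in KO mice and 313 ± 233 CPM in controls, with 79.7 CPM in control males and 468 CPM in control females. With sex in the model its log2 fold of -0.56 ± 0.39 (SE) did not pass, nor did 0.51 without its 4 miR-122 regions. Cyp2r1, a vitamin D hydroxylase, had a log2 fold of -0.25, and Cyp4b1 and Cyp4v3 had -0.41 and -0.55; none passed over all regions. Cyp2g1 and Cyp2u1 had too few reads for the test.

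Cyp1b1, a P450 found mainly outside hepatocytes, was the one member above the controls in every KO library. It took 8.94, 9.75, 14.0 and 13.1 CPM in KO mice, against 4.23, 0, 0.879, 2.56 and 1.34 CPM in controls, too few reads for the test. Stellate cell and matrix markers also summed higher in every KO library, at 1177 to 2161 CPM in KO mice and 719.9 to 883 CPM in controls, and their part in this was not tested.

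**Figure D3:**
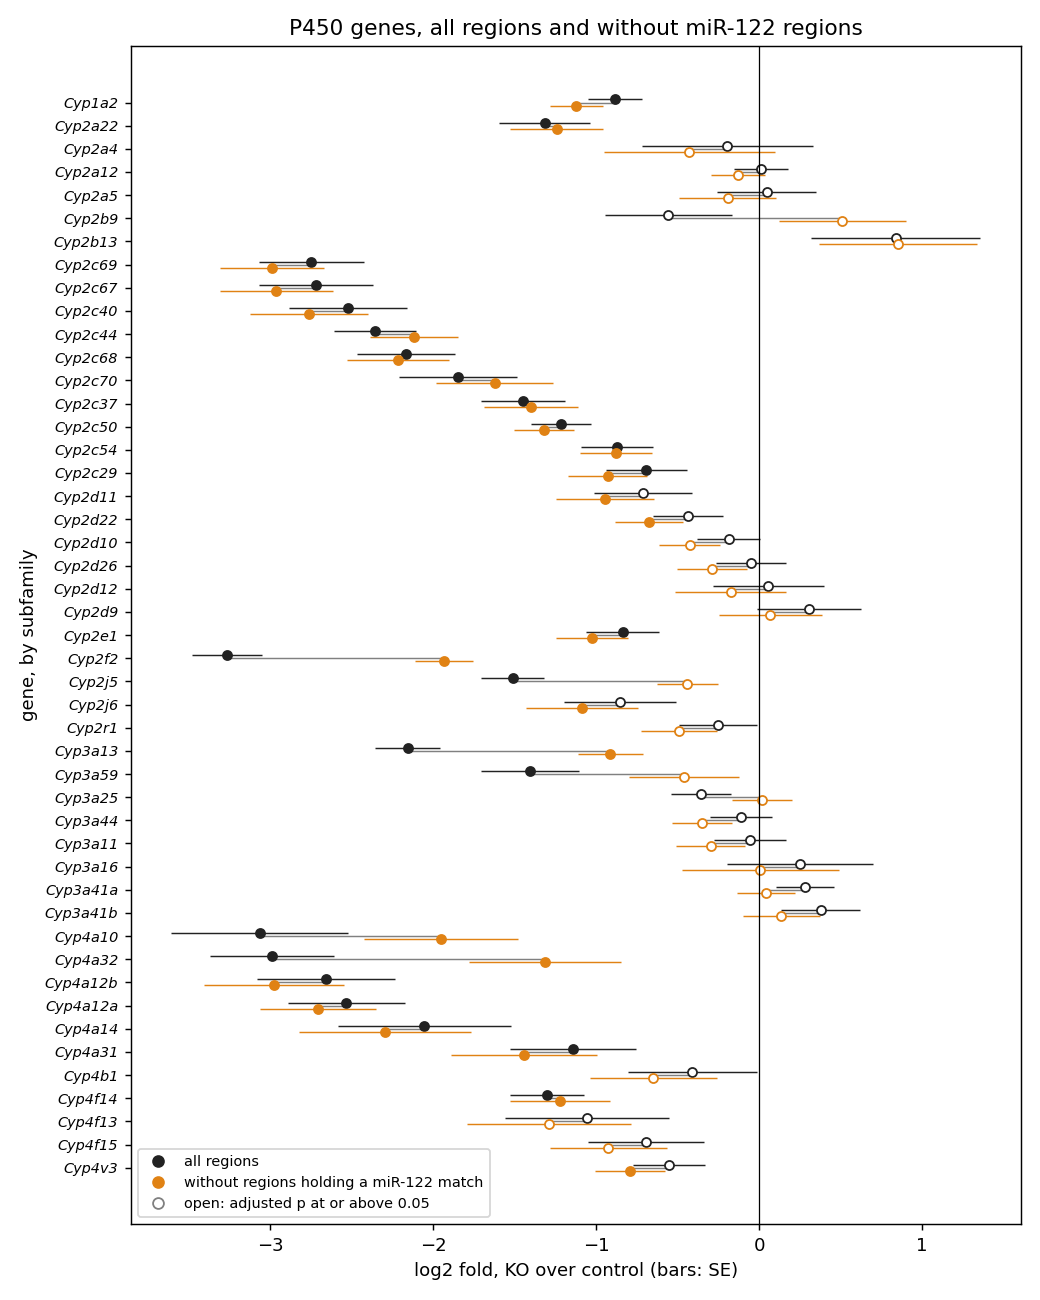
Log2 fold, KO over control, with its SE for each P450 gene tested in both fits, over all regions (black) and without regions that hold a miR-122 match (orange). Filled points passed the test. Cyp2f2, Cyp2j5, Cyp3a13, Cyp3a59, Cyp4a10 and Cyp4a32 lie nearer 0 without miR-122 regions, the Cyp2c genes stay low, and most Cyp2d and Cyp3a genes lie near 0.

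Single regions, with a median width of 70 bases, were tested in the same way. Of 159 P450 regions tested, 68 were lower in KO mice and 10 higher, beside 27.6% lower and 17.5% higher of 17182 regions in all. With a miR-122 match, all 23 tested P450 regions were lower, with a median log2 fold of -3.66. Over all liver regions with a match 89.8% were lower, 1.29% higher and 91.1% called either way, and the median was -3.74. The other 25 P450 regions with a match had too few reads for the test, and 8 of the 48 had no KO read. A region with few KO reads could enter the test only through its control reads, which favours lower calls among these regions. Without a match, 45 of 136 P450 regions were lower (33.1%) and 10 higher (7.35%), beside 16.3% lower and 20.4% higher of all regions without a match.

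The miR-122 matches of the P450s were mostly outside 3' UTRs and mostly short. Of the 48 regions, 19 lay in coding sequence, 19 in introns and 3 in 3' UTRs. The longest match was a 6mer in 25 regions, a 7mer in 9 (7mer-A1) and 6 (7mer-m8), and an 8mer in 8. The median log2 fold was -3.61 for the 13 tested regions with a 6mer and -4.10 for the 4 with a 7mer-m8. The authors' conservation score (phyloP) of the match reached 1 in 7 of 41 regions that had one.

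In Cyp2f2 the coding region chr7:27132461-27132530 (mm10, plus strand) held a 7mer-m8 match. It took 8.94, 8.77, 2.80 and 3.27 CPM in KO mice, against 355, 247, 417, 618 and 660.5 CPM in controls. The KO libraries held a few reads each, and the log2 fold was -6.40 ± 0.41 (SE; edgeR adjusted p = 1.29e-08). In Cyp2j5 the coding region chr4:96663935-96664004 (minus strand) with a 7mer-A1 match took 33.8, 34.1, 29.9 and 14.7 CPM in KO mice, against 416, 406, 395, 423 and 346 CPM in controls. KO replicate 4 was the lowest library and no KO library came near a control, and the log2 fold was -3.82 ± 0.26 (SE; edgeR adjusted p = 1.88e-08). The largest 3' UTR region of Cyp2j5, chr4:96628988-96629057, holds no miR-122 match and averaged 157 ± 60.3 CPM in KO mice and 169 ± 46.1 CPM in controls, with a log2 fold of -0.08.

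In Cyp2c70 the coding region chr19:40187133-40187202 (minus strand) with a 6mer match averaged 15.9 ± 10.8 CPM in KO mice and 401 ± 182 CPM in controls, with a log2 fold of -4.73 ± 0.47 (SE; edgeR adjusted p = 4.93e-07). A coding region of Cyp2c70 without a match, chr19:40183958-40184027, averaged 272 ± 163 CPM in KO mice and 672 ± 259 CPM in controls, with a log2 fold of -1.40. In Cyp4a10 the coding region chr4:115524736-115524862 (plus strand) with a 6mer match averaged 34.8 ± 15.0 CPM in KO mice and 850.4 ± 639 CPM in controls, with a log2 fold of -3.74. The corresponding 6mer region of Cyp4a32, chr4:115610460-115610529, averaged 16.6 ± 7.37 CPM in KO mice and 275 ± 118 CPM in controls. In Cyp3a13 the 3' UTR region chr5:137894144-137894213 (minus strand) with a 6mer match averaged 6.003 ± 4.62 CPM in KO mice and 103 ± 30.0 CPM in controls, with a log2 fold of -4.17.

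Cyp2e1 held low, level and high regions in KO mice. The coding region chr7:140770924-140770993 (plus strand), with a miR-27 match and none to miR-122-5p, took 40.7, 25.3, 19.6 and 32.7 CPM in KO mice, against 429.9, 442, 375, 374 and 385 CPM in controls. No KO library came near a control, and the log2 fold was -3.73 ± 0.29 (SE; edgeR adjusted p = 4.92e-08). The coding region chr7:140770130-140770199, with a miR-23 match, averaged 86.9 ± 35.2 CPM in KO mice and 552 ± 145 CPM in controls, with a log2 fold of -2.62. A coding region near the 3' end, chr7:140774615-140774684, averaged 378 ± 129 CPM in KO mice and 374 ± 64.7 CPM in controls. The 3' UTR region chr7:140774868-140774937 took 309, 415, 198 and 111 CPM in KO mice, against 86.0, 148, 125, 110.2 and 81.9 CPM in controls. It was higher in KO mice, with KO replicate 4 inside the control range and a log2 fold of 1.26 ± 0.31 (SE; edgeR adjusted p = 0.00295). Both miR-122 regions of Cyp2e1 were intronic and low in reads, at 4.63 CPM in KO mice and 74.3 CPM in controls together.

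**Figure D4:**
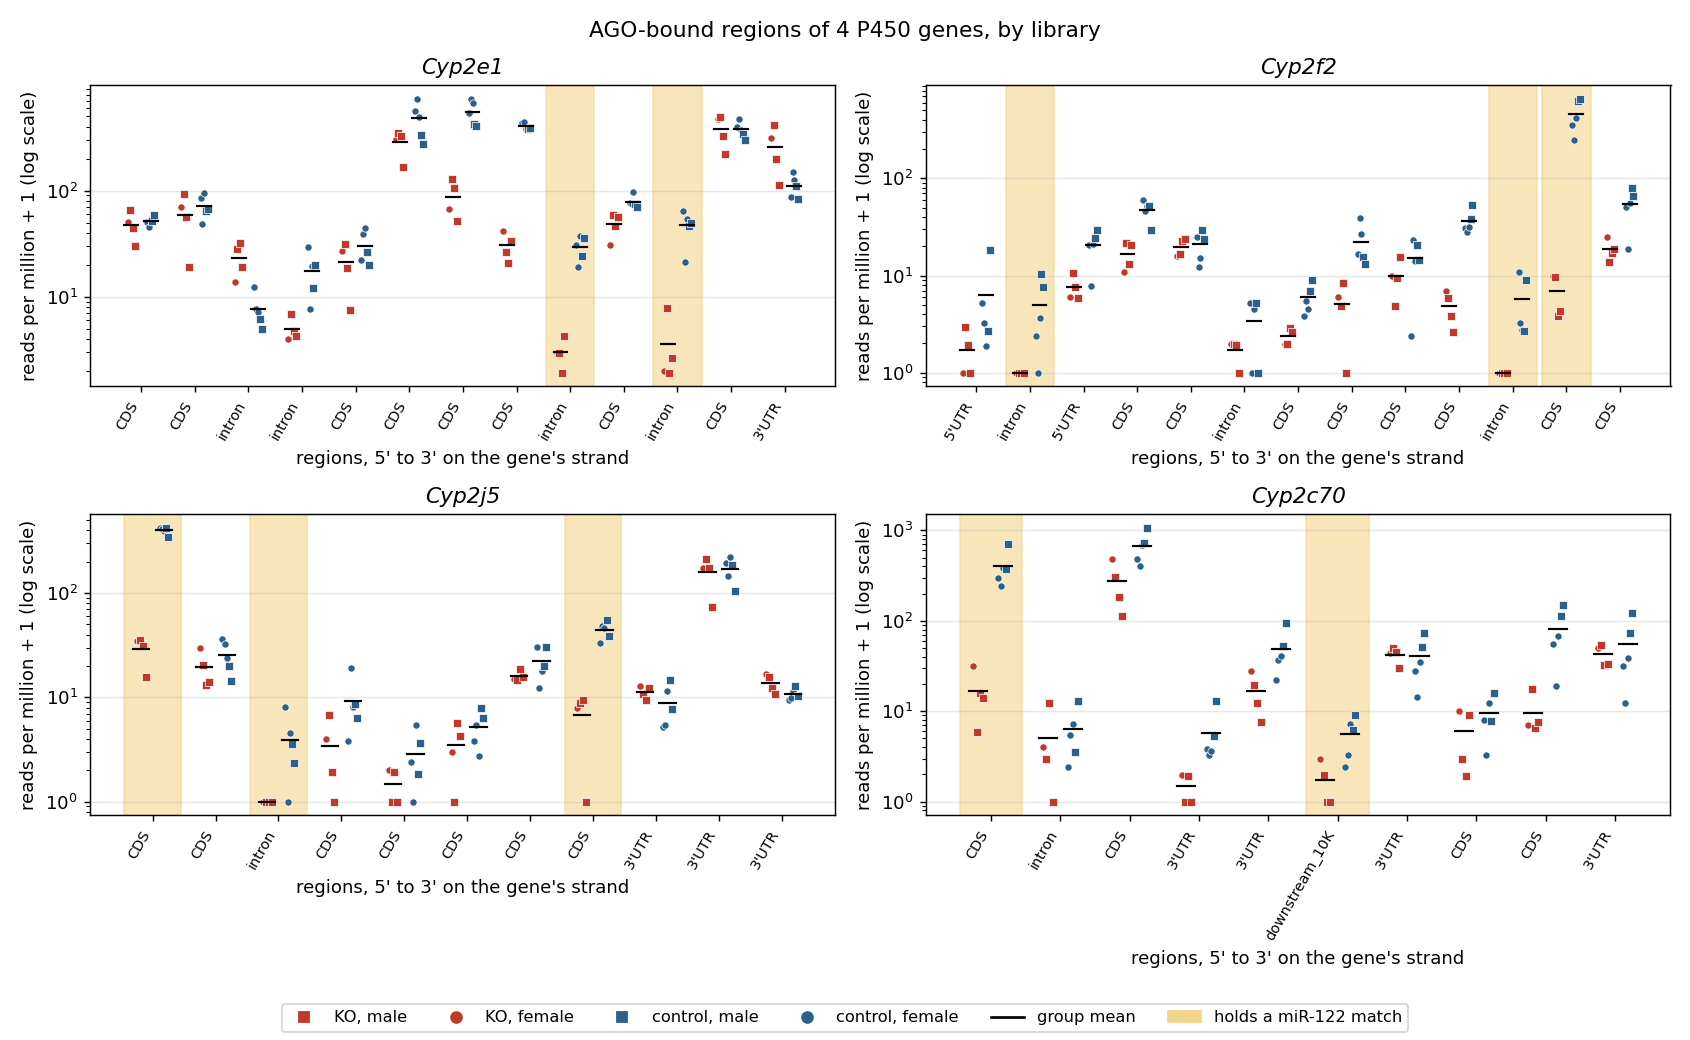
CPM plus 1 (log scale) in each AGO-bound region of Cyp2e1, Cyp2f2, Cyp2j5 and Cyp2c70, in order along the gene's strand and labelled by the deposited annotation, KO left (red) and control right (blue). Shaded regions hold a miR-122 match. KO libraries lie below the controls in the shaded regions with the most reads and in the Cyp2e1 coding regions with miR-23 and miR-27 matches, and overlap them in the last coding and 3' UTR regions of Cyp2e1 and the main 3' UTR region of Cyp2j5.

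Few regions with other miR-122 related matches had enough reads for the test, 1 of 4 of the class miR-122-5p-B and 2 of 3 with a match to miR-122-3p, and those tested were lower. The 3' UTR region of Cyp4a14 at chr4:115486316-115486385 (minus strand) holds a match of the class miR-122-5p-B, which the sources used here do not define. It averaged 16.3 ± 11.8 CPM in KO mice and 461 ± 324 CPM in controls, with a log2 fold of -3.84. The 5' UTR region of Cyp1a2 at chr9:57682490-57682559 (minus strand), with matches to miR-122-3p, the other arm of the precursor, and to miR-143, averaged 18.2 ± 4.79 CPM in KO mice and 116 ± 24.3 CPM in controls, with a log2 fold of -2.78. The 10 higher regions lay in Cyp2e1, Cyp3a25, Cyp2d10, Cyp3a11, Cyp2d9, Cyp2a12, Cyp1a2 and Cyp3a41b. Among them, the 3' UTR region of Cyp3a11 at chr5:145854623-145854692 took 23.8, 41.9, 38.3 and 16.3 CPM in KO mice, against 9.87, 4.49, 7.04, 6.84 and 10.7 CPM in controls, with every KO library above every control and a log2 fold of 1.74.

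Each region was also set against the other regions of its gene (edgeR's diffSpliceDGE), which removes a change of the whole transcript. Of 156 P450 regions, 30 were lower and 28 higher than the rest of their gene, beside 15.8% lower and 15.9% higher of 13021 regions in all. With a miR-122 match, 15 of 23 were lower and 0 higher. Without one, 15 of 133 were lower and 28 higher, and a strong fall of one region makes its neighbours higher in this test by construction. The shares over all liver regions with and without a match were not counted apart in this test, so these counts cannot be read as particular to P450s. The Cyp2e1 coding region with the miR-27 match differed from the rest of its gene by -2.95 on the log2 scale (edgeR adjusted p = 1.78e-12) and the 3' UTR region by 2.04 (edgeR adjusted p = 1.15e-08). The Cyp4a10 region with the 6mer did not pass (log2 difference -0.70, edgeR adjusted p = 0.467). Without control replicate 4, 37 P450 regions were called in place of 58.

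By annotation, coding sequence held 63.0% of P450 reads in KO mice and 71.0% in controls (means over libraries), and 3' UTRs held 26.5% in KO mice and 19.6% in controls, neither with overlap of the groups. With miR-122 regions left out the groups overlapped in both, with coding sequence at 62.9% in KO mice and 66.5% in controls. Over all tested liver regions without a miR-122 match, 9.95% of 3' UTR regions were lower and 30.3% higher (median log2 fold 0.50), and 23.5% of coding regions were lower and 9.20% higher (median -0.10).

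Matches to other microRNAs were spread over the P450 regions, and 63 regions had a match to none of the 31 families in the file. Besides miR-122, the families with the most P450 regions were that of miR-103 and miR-107 with 51 in 40 genes, miR-29 with 43, miR-15/16 with 37, let-7 with 34 and miR-27 with 32. Mature sequences of these families are shown because their matches are the most frequent in P450 regions besides miR-122, with bases 2 to 8, the seed, in capitals (RefSeq, GRCm38.p6).
mmu-miR-103-3p: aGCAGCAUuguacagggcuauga
mmu-miR-107-3p: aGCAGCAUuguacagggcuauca
mmu-miR-29a-3p: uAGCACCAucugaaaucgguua
mmu-miR-15a-5p: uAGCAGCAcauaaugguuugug
mmu-miR-16-5p: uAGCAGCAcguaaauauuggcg
mmu-let-7a-5p: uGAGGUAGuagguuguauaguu
mmu-miR-27a-3p: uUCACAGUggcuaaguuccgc

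The pairs miR-103 and miR-107, and miR-15a and miR-16, share a seed. In regions with one of these matches and none to miR-122, 4 of 13 tested regions of the miR-103 family were lower and 1 higher, 7 of 24 miR-29 regions were lower and 1 higher, and 4 of 16 miR-27 regions were lower and 0 higher. The median log2 folds were -0.995, -0.27 and -0.11, beside -0.41 for all P450 regions without a miR-122 match. Calls among those 136 tested P450 regions ran at 33.1% for lower and 7.35% for higher. Over all liver regions of this kind the shares were 16.3% and 20.4%. Of 10 miR-15/16 regions 3 were lower and 0 higher, and of 13 let-7 regions 2 were lower and 2 higher. Among families with at least 9 such regions tested, a limit set after the values were seen, the lowest medians were those of miR-130/301 (-1.80, 6 of 10 lower), miR-148 (-1.70, 7 of 11 lower) and miR-378a (-1.41, 5 of 9 lower). Families with fewer tested regions were also low, such as miR-193 (-1.66, 2 of 4 lower), miR-30 (-1.40, 3 of 5 lower) and miR-17/20 (-1.11, 3 of 3 lower). A region can hold matches to several families, so these counts share regions. Liver-wide shares for each family were not counted, and whether any family departs from the P450 share was not tested.

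Between the sexes, 5 P450 genes were lower and 2 higher in males, with genotype in the model, of 47 tested. Over all genes 0.113% were lower and 0.294% higher. Cyp4a12a, known as a male-specific hydroxylase of arachidonic acid, took 2.98, 28.3, 30.8 and 19.6 CPM in KO mice, against 2.82, 2.24, 13.2, 153 and 166 CPM in controls. Males lay above females in both groups, and KO males lay below control males. The log2 fold was 4.23 ± 0.40 (SE; edgeR adjusted p = 0.000849), male over female, and -2.53, KO over control. Cyp4a12b, a near-identical copy with uncertain reads, had log2 folds of 3.58 and -2.66.

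Lower in males were Cyp2b13, Cyp2c69, Cyp2c37 and the near-identical pair Cyp3a41a and Cyp3a41b, known as female P450s. Cyp2b13 had 46.0 CPM in KO males and 159 CPM in the KO female, and 12.5 CPM in control males and 162 CPM in control females, with a log2 fold of -2.73 ± 0.50 (SE; edgeR adjusted p = 0.0367). Cyp3a41b had 94.0 CPM in KO males and 229 CPM in the KO female, and 62.7 CPM in control males and 175 CPM in control females, with a log2 fold of -1.34. Those of Cyp2c69, Cyp2c37 and Cyp3a41a were -1.97, -1.35 and -1.08.

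All of these calls lower in males were lost without control replicate 1 and without control replicate 5. The count of P450 genes called for sex was 2, 3, 4, 2 and 1 without control replicates 1 to 5 in turn, 5 without KO replicate 1, 8 without KO replicate 2, 3 without KO replicate 3 and 11 without KO replicate 4. Without KO replicate 1, the KO female, Cyp2c69, Cyp2c37, Cyp3a41a and Cyp3a41b lost their calls. For genotype by sex, edgeR called 0 of 47 P450 genes and 0% of all genes. At an unadjusted p under 0.05 there were 8 P450 genes and 549 genes in all, and a single KO female limits that test.

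**Figure D5:**
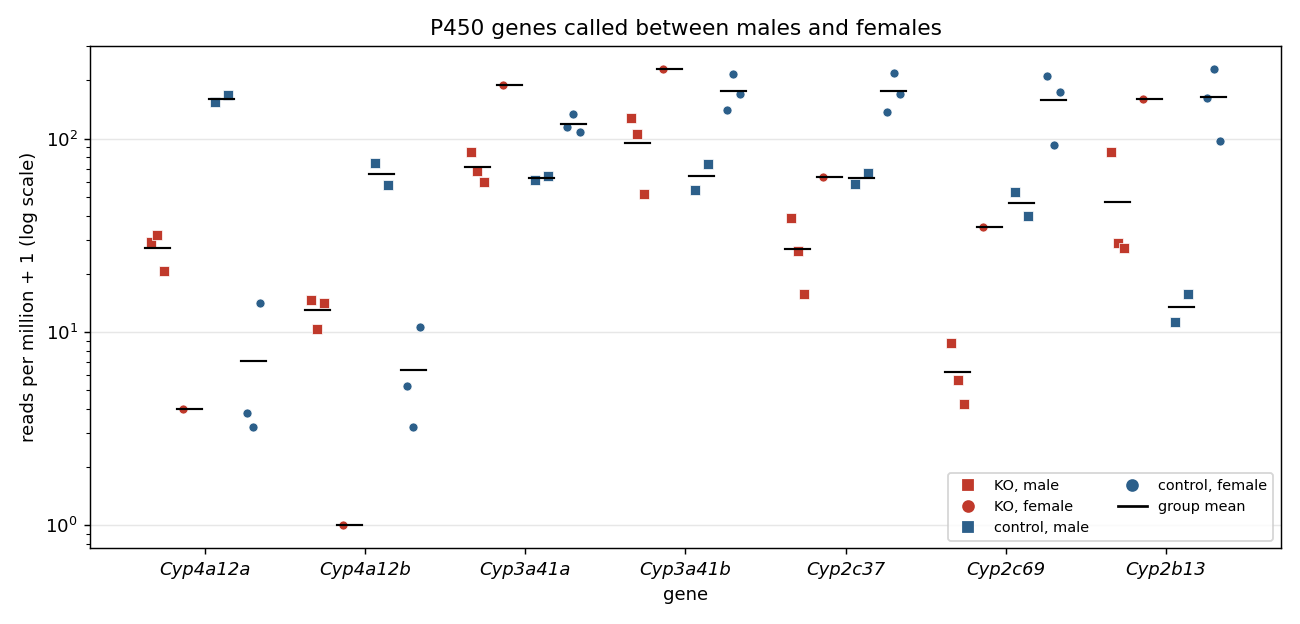
CPM plus 1 (log scale) of the 7 P450 genes called between males and females. In each gene the columns are KO males, the KO female, control males and control females, points are libraries and lines are means. Cyp4a12a and Cyp4a12b are higher in males and the other 5 genes higher in females, in both genotypes.

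Counts over other genes of drug metabolism, taken from lists, are read beside the 23.7% lower and 21.2% higher of all genes tested. Of 14 tested genes of electron transfer to P450s and of heme, 3 were lower and 1 higher, no more than the share of all genes in either direction. Without miR-122 regions 4 of 13 were lower and 1 higher, beside 16.7% lower and 17.3% higher of all genes. Cpox, an enzyme of heme synthesis, averaged 259 ± 66.7 CPM in KO mice and 892 ± 215 CPM in controls, with a log2 fold of -1.74. Cyb5r3, which reduces cytochrome b5, and the heme-binding Pgrmc1 had log2 folds of -0.27 and -0.09 that did not pass. Alas1, the first enzyme of heme synthesis, averaged 342 ± 163 CPM in KO mice and 153 ± 45.3 CPM in controls and did not pass.

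Of 24 tested regulators of P450 genes, 9 were lower and 4 higher, beside 23.7% lower and 21.2% higher of all genes. Without miR-122 regions 5 of 22 were lower and 2 higher, beside 16.7% lower and 17.3% higher of all genes. The nuclear receptors Rxra and Hnf4a and the growth hormone receptor Ghr were lower, with log2 folds of -0.82, -0.85 and -0.90. Without miR-122 regions their log2 folds of -0.07, -0.54 and -0.37 did not pass. Ppara, which encodes PPARα, averaged 376 ± 101 CPM in KO mice and 420.0 ± 52.7 CPM in controls and did not pass. Of 22 other oxidation and hydrolysis genes, 6 were lower, near the share of all genes, and 2 higher. Without miR-122 regions 9 of 22 were lower and 1 higher, beside 16.7% lower and 17.3% higher of all genes. The 25 genes summed to 3284 ± 667 CPM in KO mice and 5467 ± 347 CPM in controls over all regions, without overlap. Log2 folds were -1.34 for Akr1c6 and -1.53 for the aldehyde oxidase Aox3, whose log2 fold without miR-122 regions, -0.39, did not pass. Of 29 conjugation genes, 13 were lower and 2 higher, and without miR-122 regions 14 of 28 were lower and 2 higher. The glutathione transferase Gstm3 averaged 808 ± 210.4 CPM in KO mice and 109 ± 26.7 CPM in controls, with a log2 fold of 2.83, and Mgst1 had -0.99.

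Of 7 tested P450s of other families 5 were lower and 0 higher, beside 23.7% lower and 21.2% higher of all genes. Without miR-122 regions 2 of 5 were lower and 0 higher, beside 16.7% lower and 17.3% higher of all genes. All 10 such genes summed to 205 ± 35.8 CPM in KO mice and 2558 ± 728 CPM in controls, and Cyp8b1 held most of the control reads. Cyp8b1, the sterol 12-alpha-hydroxylase of bile acid synthesis, averaged 88.7 ± 17.4 CPM in KO mice and 2275 ± 681 CPM in controls, with a log2 fold of -4.78 over all regions and -2.17 without miR-122 regions.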

How the data were processed

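AGO CLIP-seq was done on 9 mouse livers, with a mouse of its own behind each library, as labelled. The build mm10 and the aligner Bowtie2 are named in the submitters' processing notes. The sources used here give no tool versions, peak caller, duplicate handling, or rule for counting by strand and among near-identical copies. The deposited matrix gave read counts per region and library, not normalized, per the file headers, in 143524 rows for 92645 unique regions. The deposited phyloP score is the mean conservation of a 6-base seed match, per the file headers. Counts were summed per gene over unique regions. Regions without a gene held 11.0% of counts, and 189 regions with month-form gene names were not used in the gene fits. All 62 member names matched RefSeq (GRCm38.p6), 61 by symbol, and all 456 regions lay within 1 kb of their gene.

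Tests used edgeR 4.0.16 in R 4.3.3 on all 9 libraries (TMM, filterByExpr, glmQLFit, glmQLFTest, diffSpliceDGE), with DESeq2 1.42.0, other scalings, filters, models and left-out libraries as alternatives. Folds were KO over control on the log2 scale after TMM scaling, while CPM used library totals over unique regions. SEs were derived from the test statistic. The floor of 3 counts was 0.807 CPM over the KO group and 0.713 CPM over controls, and covers counting error only. Chi-square per degree of freedom between replicates ran from 2.00 to 6.43, so no pair was alike within counting noise. In simulated data for the gene fit over all regions (8778 genes), 96.8% of 94 genes changed by 2 on the log2 scale were recovered. Of 97 genes changed by 1, 16.5% were recovered. For regions (17214) these were 88.0% and 14.9%. For regions against their gene (12868) they were 36.4% and 1.43%, so many changes of that kind went uncalled there. In the real libraries 44.9% of genes were called, a far larger share than was changed in the simulated data. Whether the rates hold at such a share was not tested.

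The members and lists were chosen with earlier results of these data known. Genes named were the 20 members with the highest mean CPM, members called without miR-122 regions with a mean of at least 10 CPM, the leading member of each subfamily, members called for sex, and up to 4 leading genes per list. Regions were the 12 with the highest mean CPM, those with a miR-122 match and at least 10 CPM, and 10 called against their gene. Cyp2c38, Cyp2d34, Cyp3a59, the higher regions, some families of matches and the unchanged Cyp2j5 region were named after their values were seen.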

Additional observations from a re-analysis of the deposited data

Results flagged for a closer look

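Among 118 groups of 4 or 5 libraries, over named genes and subfamily sums, 3 held a library far from the others, where chance gives about 1 in 20. Cyp2c69 was at 33.8 CPM in KO replicate 1, the KO female, and at 3.27 to 7.80 CPM in the other KO libraries. Cyp2c29 was at 469 CPM in control replicate 2, and at 305 to 346 CPM in the other controls. The Cyp1a sum was at 193 CPM in control replicate 2, and at 226 to 231 CPM in the other controls.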

How the results depend on the processing

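Leaving out each library in turn gave 22 to 29 called P450 genes over all regions, 18 to 29 without miR-122 regions, 1 to 11 for sex, 59 to 96 regions, and 37 to 63 regions against their gene. Without a filter on low counts 135 regions were called in place of 78, of more regions tested. Without miR-122 regions, 17 genes were called in males only and 11 over 3' UTR regions only, where fewer libraries or genes were tested. Libraries of the same replicate number did not deviate alike from their group means (correlations of deviations -0.09 to 0.01). Other pairings of the mice were not checked, so this does not exclude them. With the replicate block, 24 regions were called against their gene in place of 58, 0 genes for sex in place of 7, 25 genes over all regions, 21 without miR-122 regions and 60 regions. Without miR-122 regions, scaling on the hepatocyte products turned the log2 fold to 0.65 for Cyp2a12 and 0.0722 for Cyp2d22, and 3' UTR regions only to 0.72 for Cyp2e1, 0.59 for Cyp2c54 and -1.41 for Cyp3a25; the cause was not tested. With that scaling the signs of uncalled log2 folds turned too, to 0.47 for Cyp3a11, 0.34 for Cyp2d10, 0.31 for Cyp2j5, 0.28 for Cyp2r1 and 0.09 for Cyp4b1, making 7 named genes without miR-122 regions, and 7 over all regions. Of 23 named genes called over all regions 15 kept the call in every alternative run, and of 26 called without miR-122 regions 7 did. The library sizes of the fit over all regions and the removal of miR-122-5p-B regions were alternatives added after seeing the data. Depth kept 15 genes and 297 regions out of the tests.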
